A study of Mus musculus with 22 samples.

Results

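The 9 genes described here encode parts of the tight junction, the belt of membrane proteins that seals neighbouring epithelial cells against each other. They were chosen by symbol as claudins, other junction membrane proteins, a polarity protein and scaffolds. The rule holds no expression value, but the choice was made with earlier results of these data known. They are 9 of the 24130 genes counted in each library. The claudins are Cldn3, Cldn4, Cldn6 and Cldn7. The other members are Ocln, Marveld3, Crb3, Tjp1 and Tjp3. RNA was sequenced from 20 cultures of mouse embryonic fibroblasts that carry the OG2 transgene, a reporter in which GFP is driven by the Oct4 gene, at passage P2 and on a mixed strain background that the labels give as 1/2 129SVJ, 3/8 C57B6 and 1/8 CBA. All 20 cultures were transfected for 2 days before day counting began. OvSvK cultures received Oct4 and Sox2, each fused to the VP16 activation domain, with Klf4, and were taken on days 0, 1, 2, 3 and 4. OSK cultures received Oct4, Sox2 and Klf4 and were taken on days 0, 1, 3, 5 and 7. OSK cultures in media that lacked bFGF, the GSK3 inhibitors (CHIR-99021 together with LiCl) or vitamin C were taken on days 3 and 7. GFP cultures, transfected with GFP, were taken on days 1, 3, 5 and 7. Mouse embryonic stem cells (mESC) of the same reporter background and unreprogrammed fibroblasts (MEF) are 1 library each, known here only from the authors' normalised table. Per the series' own account, the OvSvK course ends on day 4 and the OSK course on day 7, so the last library of each is its end point. Each arm and day is 1 library, so no value has a replicate, and the errors of the tests below are the variation of a difference between days or the departure from a line over days.

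Claudins are membrane proteins whose extracellular loops pair between cells and set which ions pass the seal. Occludin (Ocln) and Marveld3 belong to the MARVEL family of junction membrane proteins, Crb3 is the epithelial member of the Crumbs apical polarity proteins, and Tjp1 (ZO-1) and Tjp3 (ZO-3) are cytoplasmic scaffolds that tie the junction to actin. Fibroblasts make no tight junctions, although Tjp1 also sits at their cadherin contacts, and conversion of fibroblasts to pluripotent cells passes through a gain of epithelial features in which repressors that bind E-boxes, such as Snai1 and Zeb1, are known to act on junction genes.

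RefSeq promoter windows on the GRCm38.p6 build (the same assembly as mm10) were available for 8 members. Marveld3 is named only. The 250 bases before each start were searched on both strands for the E-box CACCTG (reverse CAGGTG), because its binding factors are known regulators of this gene class. A match was present in 6 of the 8 members, and in 8 of their 12 windows, against 17.2% of 32851 mouse promoter windows of this length. The members with more than 1 start had more than 1 chance of a match. The windows of Crb3 overlap and hold the same E-box matches, so these count in both. Cldn3 and Tjp1 had no match. The windows of Tjp1 and Crb3 lie inside the gene spans given below, so the bases before the outermost annotated starts of these genes were not searched. Windows of Cldn4, Crb3 and Cldn6, with each E-box in capitals, are shown because these genes have the clearest changes below, and the window of Tjp1 because its level behaved unlike the others. They lie at chr5:134946935-134947184 on the minus strand for Cldn4, chr17:57061951-57062200 on the plus strand for Crb3, chr17:23679115-23679364 on the plus strand for Cldn6, and chr7:65371245-65371494 on the minus strand for Tjp1.
Cldn4: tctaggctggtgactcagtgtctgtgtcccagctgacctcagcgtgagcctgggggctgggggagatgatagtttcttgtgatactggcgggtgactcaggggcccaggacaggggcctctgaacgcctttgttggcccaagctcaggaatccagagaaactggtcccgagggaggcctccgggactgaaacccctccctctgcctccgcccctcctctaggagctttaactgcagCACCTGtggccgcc
Crb3: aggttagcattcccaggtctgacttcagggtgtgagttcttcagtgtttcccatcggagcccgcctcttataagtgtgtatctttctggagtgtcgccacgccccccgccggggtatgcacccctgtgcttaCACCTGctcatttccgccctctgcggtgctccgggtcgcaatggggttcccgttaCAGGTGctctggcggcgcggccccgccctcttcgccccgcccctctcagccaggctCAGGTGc
Cldn6: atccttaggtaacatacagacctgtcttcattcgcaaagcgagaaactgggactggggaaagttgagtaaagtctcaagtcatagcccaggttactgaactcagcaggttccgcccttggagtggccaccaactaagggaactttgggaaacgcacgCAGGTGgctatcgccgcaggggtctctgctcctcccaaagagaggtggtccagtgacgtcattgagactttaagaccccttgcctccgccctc
Tjp1: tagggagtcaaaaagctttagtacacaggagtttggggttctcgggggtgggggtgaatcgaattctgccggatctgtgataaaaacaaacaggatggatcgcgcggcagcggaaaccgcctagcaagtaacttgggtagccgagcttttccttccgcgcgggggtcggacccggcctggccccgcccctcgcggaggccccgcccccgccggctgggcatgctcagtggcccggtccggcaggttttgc
The Cldn4 match began 14 bases before the start, the Cldn6 match 93 bases before it, and the 3 Crb3 matches 118, 63 and 7 bases before it. The Klf-type motif GGGNGNGG (reverse CCNCNCCC) was found in 7 of the 8 members, all but Cldn6. It was present in 9 of their 12 windows, against 45.9% of all windows. Matches that overlap each other were counted separately. No E-box match overlapped a Klf-type match in these members. The grainyhead motif AACCNGTT (reverse AACNGGTT) was found in none of the 8 members, against 1.79% of all windows, and the octamer ATTTGCAT (reverse ATGCAAAT) in none, against 1.60%. These are letter matches, and binding was not measured.

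Library totals lay between 7872277 and 20720718 counts. Levels are given as counts scaled to library size (CPM), or as TPM where genes are compared, since TPM also allows for length. A count of 0 allows up to 0.144 to 0.399 CPM, depending on the library. Intervals in brackets are exact 95% limits that cover counting error only. The libraries fell into 2 sets by the share that the pseudogene Rpsa-ps10 took of the reads it shares with Rpsa: 3.32% to 7.78% in 8 libraries (OSK on days 1 to 7 and GFP) and 0.124% to 0.476% in the other 12. OSK and GFP on matched days lie in 1 set, and so do OvSvK and the omission media. OvSvK against OSK after day 0, and each omission against full OSK medium, cross the sets, so set and treatment cannot be told apart there. OSK day 0 (0.341%) lies in the set of 12, apart from the later OSK days. The line over days in OSK, and the slopes of OSK against GFP and of OvSvK against OSK, therefore cross the sets as well. In OSK, day 0 and set cannot be told apart. OSK day 0 stood apart in scaling (factor 0.6647, against 0.8539 or more elsewhere) and in its genes of lowest GC content, whose median deviated by -1.61 on the log2 scale. The same deviation was -1.01 in GFP day 1. Of the defining fibroblast markers, all 8 were detected in each arm, with summed levels of 6440 to 32000 CPM in OvSvK, 5080 to 52400 CPM in OSK and 29600 to 37600 CPM in GFP.

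In GFP cultures the membrane and polarity members were near or below the counting limit, while Tjp1 was abundant. Marveld3 and Tjp3 had 0 counts in all 4 GFP libraries. Ocln had 0.127, 0, 0 and 0 CPM on days 1, 3, 5 and 7, Crb3 had 0.127, 0, 0 and 0.0880 CPM, Cldn7 had 0.127, 0, 0.124 and 0 CPM, and Cldn6 had 0.255, 0, 0 and 0 CPM. Cldn4 had 3.31 CPM in GFP on day 1 and then 0.711, 0.373 and 0.264 CPM on days 3, 5 and 7, so its day 1 library was the highest of this arm. Cldn3 had 0.510, 0, 0.249 and 0.176 CPM. Tjp1 had 70.6, 157, 211 and 248 CPM, the only member whose GFP values were higher on each later day.

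**Figure D1:**
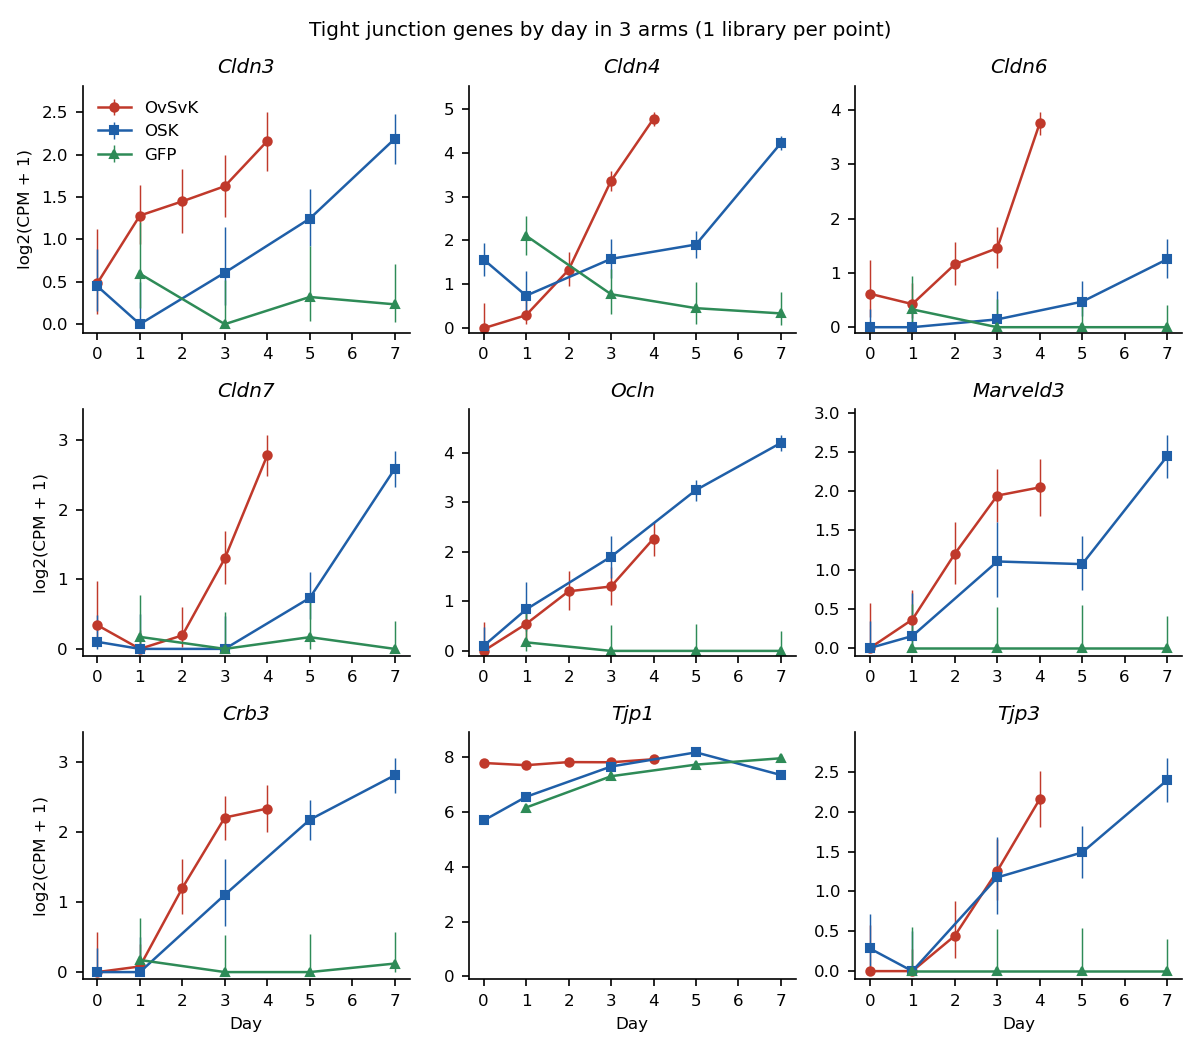
Each panel plots log2(CPM + 1) of 1 gene against day for OvSvK (circles), OSK (squares) and GFP (triangles), 1 library per point, with exact 95% counting limits as bars. In the last OvSvK and OSK libraries 8 of the 9 genes lie above every GFP library, while Tjp1 is high in all 3 arms.

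All claudins were highest in OSK on the last day. Cldn4 had 1.96, 0.672, 1.99, 2.75 and 17.6 CPM in OSK on days 0, 1, 3, 5 and 7, with most of its gain after day 5. Cldn7 had 0.0726, 0, 0, 0.660 and 4.99 CPM, which is 1 count in the first 3 libraries together against 83 counts on day 7. Cldn3 had 0.363, 0, 0.524, 1.37 and 3.55 CPM. Cldn6, a claudin typical of early embryonic epithelia, had 0, 0, 0.105, 0.385 and 1.38 CPM and so remained the lowest claudin, with 23 counts on day 7.

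The MARVEL genes and Crb3 were above 1 CPM earlier in OSK than Cldn3, Cldn6 and Cldn7. Ocln had 0.0726, 0.785, 2.73, 8.47 and 17.3 CPM on days 0, 1, 3, 5 and 7, higher on each later day. Crb3 had 0, 0, 1.15, 3.52 and 6.02 CPM. Marveld3 had 0, 0.112, 1.15, 1.1 and 4.45 CPM, with days 3 and 5 alike. Of the scaffolds, Tjp3 had 0.218, 0, 1.26, 1.81 and 4.27 CPM. Tjp1 had 50.6, 92.9, 201, 288 and 162 CPM, so its highest OSK value was on day 5 and not on the last day.

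On a line over days, 8 of the 8 members tested rose in OSK, against 21.5% of all 13848 genes that rose. Cldn7 was too low for this test. Members other than Cldn4 and Tjp1 passed the filter on low counts only through OSK and OvSvK libraries after day 0, where they were high. Entry to the tests of lines over days thus favoured a rise, and the share of all genes is not a like comparison. The rise per day on the log2 scale was 1.00 ± 0.22 (SE) for Crb3 (adjusted p = 0.00503), 0.98 ± 0.19 for Cldn6 (adjusted p = 0.00443) and 0.89 ± 0.14 for Ocln (adjusted p = 0.00201). It was 0.79 ± 0.18 for Marveld3 (adjusted p = 0.00757), 0.67 ± 0.16 for Tjp3 (adjusted p = 0.0104), 0.58 ± 0.15 for Cldn3 (adjusted p = 0.0108) and 0.49 ± 0.11 for Cldn4 (adjusted p = 0.00555). The median over the 8 tested members was 0.73, beside -0.01 over all genes. Without OSK day 7, 4 members remained called, Ocln, Crb3, Tjp1 and Tjp3, and the slope of Cldn4 was 0.17 (adjusted p = 0.329). Tjp1 had the smallest slope, 0.28 ± 0.09 (adjusted p = 0.0272), and without OSK day 0 it was 0.15 (adjusted p = 0.318). Without that library Tjp3 was also lost (adjusted p = 0.0503), which left 6 calls. Tjp1 was lost too without OSK day 1 (adjusted p = 0.0785) or OSK day 5 (adjusted p = 0.0822). In GFP, 0 members were called, against 4.8% of genes in either direction. Marveld3 and Tjp3, with no counts in GFP, could not be called there. At an unadjusted p under 0.05 there were 3 members, and DESeq2 called 1 (Cldn4, lower) and limma 0. Without OSK day 0, 1 member was called in GFP, and without OSK day 7, 2 were. Cldn4 had a GFP slope of -0.63 ± 0.19 (adjusted p = 0.0691) and Tjp1 one of 0.29 ± 0.11 (adjusted p = 0.118).

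Tested as a difference of slopes, 2 of 8 members rose more per day in OSK than in GFP, against 2.85% of all genes. Cldn4 differed by 1.12 ± 0.22 (SE) on the log2 scale per day (adjusted p = 0.0145), and Cldn6 by 2.10 ± 0.49 (adjusted p = 0.0388). The GFP slope of Cldn6 rests on 2 counts in its day 1 library. Both calls were lost without GFP day 1, where Cldn4 differed by 0.84 (adjusted p = 0.441) and Cldn6 by 0.98 (adjusted p = 1.0), and both were lost without GFP day 7. Without OSK day 7, Cldn4 was not called (0.81, adjusted p = 0.0603) and Cldn6 did not pass the filter on low counts, as it also did not without OvSvK day 2, 3 or 4. Without OSK day 0, 1 or 5, or GFP day 5, Cldn6 alone was lost. In limma on log2(TPM + 1), Cldn6 differed by 0.30 (adjusted p = 0.231) and was not called. For Tjp1 the slopes differed by -0.01 ± 0.14 (adjusted p = 0.98), with a 95% interval of -0.32 to 0.29. Marveld3 and Tjp3 have no GFP slope, having no counts there, so edgeR could not call either in this contrast. The GFP slope of Ocln rests on 1 count and that of Crb3 on 2.

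Between OSK and GFP libraries of the same day, the filter on low counts left only Cldn4 and Tjp1 to test. Neither was called, while 30.7% of 12680 genes were, and 0 members had an unadjusted p under 0.05. The difference over days 1, 3, 5 and 7 was 1.99 ± 1.42 (SE) on the log2 scale for Cldn4 (adjusted p = 0.325) and 0.17 ± 0.23 for Tjp1 (adjusted p = 0.605, 95% interval -0.39 to 0.73). With no filter on low counts, 4 of 9 members were called higher in OSK, against 12.9% of 19241 genes. They were Ocln (adjusted p = 0.00435), Tjp3 (adjusted p = 0.0206), Marveld3 (adjusted p = 0.0222) and Crb3 (adjusted p = 0.0256). DESeq2 called the same 4 and limma called Ocln alone. On day 1, Cldn4 was at 0.672 CPM in OSK and 3.31 CPM in GFP. Without that day, 5 of 6 members tested were called higher, Cldn4 with those 4, against 24.0% of 13268 genes. These 5 passed the filter on low counts through OSK alone, where they were high. Entry thus favoured a call of higher, and the share of all genes is not a like comparison.

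The last matched day gave the widest ratios. On day 7, Cldn4 was 66.8-fold higher in OSK than in GFP (22.6 to 326), with 293 counts in OSK and 3 in GFP. Crb3 was 68.4-fold higher (12 to 2730) with 100 counts in OSK and 1 in GFP, and Cldn3 was 20.2-fold higher (5.34 to 170). Against a GFP count of 0 set at 3 counts in that library, Ocln was at least 65.4-fold higher, Cldn7 18.9-fold, Marveld3 16.9-fold, Tjp3 16.2-fold and Cldn6 5.24-fold. Tjp1 was lower in OSK by CPM on that day, with 162 CPM in OSK and 248 CPM in GFP, a ratio of 0.655 (0.622 to 0.691). Its TPM had the opposite direction, 89.7 TPM in OSK and 85.8 TPM in GFP, with a shorter transcript length used for OSK day 7, as given below. By the rule of 2-fold with at least 5 CPM in 1 library, 3 of the 4 members at that level were higher in OSK (Cldn4, Ocln and Crb3), against 22.7% of genes. These 3 reached 5 CPM in OSK alone, so they could pass that rule only as higher.

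From day 1 on, markers of the epithelial state rose in OSK with most of these members. Levels were summed over 8 epithelial markers, among them Cdh1 and Epcam. In OSK the sum was 115, 22.4, 94.8, 188 and 604 CPM on days 0, 1, 3, 5 and 7. It was thus higher on day 0 than on days 1 and 3. In GFP the sum was 31.8 to 59.6 CPM, and Esrp1 had no count in any library there. The epithelial cadherin Cdh1 had 2.11, 6.61, 62.9, 112 and 321 CPM in OSK on days 0, 1, 3, 5 and 7, and 0.255, 0, 0.249 and 0.0880 CPM in GFP on days 1, 3, 5 and 7. The summed level of 6 mesenchymal repressors, among them Snai1 and Zeb1, was 139 to 200 CPM in OSK and 305 to 509 CPM in GFP. Snai1 had 34.8, 5.16, 0.839, 1.48 and 1.87 CPM in OSK and 28.3, 12, 17.0 and 15.9 CPM in GFP. Zeb1 had 20.2, 39.1, 39.9, 46.3 and 26.7 CPM in OSK, above day 0 on each later day, and 41.4, 115, 79.7 and 101 CPM in GFP. The sum of 6 pluripotency markers was 0.672 to 341 CPM in OSK, with 23.4 CPM on day 5 and 341 CPM on day 7, and 0.474 to 0.892 CPM in GFP, where Dppa5a and Utf1 were at 0. In OvSvK it was 1.86 to 416 CPM. Of other cell types, the trophoblast sum was 1.79 to 23.6 CPM in OSK, with 22.3 CPM already on day 0. In GFP it was 1.87 to 6.75 CPM, with Cdx2 at 0. The keratinocyte sum was 3.92 to 14.5 CPM in OSK and 0 to 4.59 CPM in GFP. The endothelial sum was 30.9 to 203 CPM in OSK and 14.3 to 15.6 CPM in GFP. Their part in the members' levels was not tested. In such bulk RNA, more cells of a type and more RNA per cell cannot be told apart.

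In OvSvK cultures 6 members rose over 4 days, by the test given below, while Cldn3 and Tjp1 did not pass it. Cldn4 had 0, 0.229, 1.51, 9.25 and 26.3 CPM on days 0, 1, 2, 3 and 4. Cldn6 had 0.532, 0.343, 1.23, 1.74 and 12.5 CPM, most of it between days 3 and 4. Cldn7 had 0.266, 0, 0.144, 1.46 and 5.86 CPM. Cldn3 differed in timing, with 0.399, 1.43, 1.73, 2.09 and 3.47 CPM, above 1 CPM already on day 1.

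Ocln had 0, 0.457, 1.30, 1.46 and 3.80 CPM in OvSvK on days 0 to 4. Marveld3 had 0, 0.286, 1.30, 2.85 and 3.14 CPM, and Crb3 had 0, 0.0572, 1.30, 3.62 and 4.05 CPM, so both were nearly level over the last 2 days. Tjp3 had 0, 0, 0.360, 1.39 and 3.47 CPM. Tjp1 ranged only from 208 to 242 CPM. On day 3, Cldn4 had 9.25 CPM in OvSvK and 0.711 CPM in GFP, a ratio of 13.0 (5.82 to 36.1) across the library sets.

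On a line over days, 6 of 8 members tested rose in OvSvK, against 4.49% of all genes. The limit set by the filter on low counts, given above for OSK, holds here too. Cldn4 rose by 2.34 ± 0.30 (SE) on the log2 scale per day (adjusted p = 0.00141), Tjp3 by 2.04 ± 0.39 (adjusted p = 0.0128) and Crb3 by 1.71 ± 0.43 (adjusted p = 0.0277). Marveld3 rose by 1.31 ± 0.35 (adjusted p = 0.0442), Cldn6 by 1.29 ± 0.22 (adjusted p = 0.00819) and Ocln by 1.13 ± 0.28 (adjusted p = 0.0317). Cldn3 had a slope of 0.60 ± 0.27 (adjusted p = 0.196) and Tjp1 one of 0.04 ± 0.14 (adjusted p = 0.873, 95% interval -0.26 to 0.34). Cldn4 was called with any 1 of the 14 libraries left out, and Cldn6 in each such fit in which it passed the filter on low counts. Cldn6 did not pass that filter without OSK day 7 or without OvSvK day 2, 3 or 4, so those removals did not test its call. The number of members called fell to 2 without OvSvK day 0, day 3 or day 4, to 3 without day 1, and to 4 without OvSvK day 2, OSK day 5 or OSK day 7.

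Between OvSvK and OSK on the shared days 0, 1 and 3, the filter again left Cldn4 and Tjp1. No gene of 12910 was called (0.0%), with 1 member, Tjp1, and 2991 genes at an unadjusted p under 0.05. Tjp1 had 220, 208 and 224 CPM in OvSvK and 50.6, 92.9 and 201 CPM in OSK on those days, a difference of 1.17 ± 0.42 (SE) on the log2 scale (adjusted p = 0.156). DESeq2 called Tjp1, as did edgeR without day 3, and limma called no member. Day 0 of OSK is the library that stood apart, and on day 3 alone the ratio of Tjp1 was 1.12 (1.05 to 1.18). In the difference of slopes no gene of 13848 was called (0.0%), and 2 members were at an unadjusted p under 0.05. Cldn4 gained 1.85 ± 0.32 (SE) log2 units per day more in OvSvK than in OSK (adjusted p = 0.0682), and DESeq2, limma and the fit without OSK day 7 each called it, as the only member.

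On day 3, the last day that both arms share, the ratios below compare 1 library with 1 other across the library sets, with counting error only. Cldn4 had 9.25 CPM in OvSvK and 1.99 CPM in OSK, a ratio of 4.64 (2.86 to 7.95). Cldn3 was 3.98-fold higher in OvSvK (1.53 to 13.1), Crb3 3.13-fold (1.62 to 6.66) and Marveld3 2.47-fold (1.25 to 5.33). Cldn6 had 25 counts in OvSvK and 1 in OSK on that day. Ocln was lower in OvSvK, with a ratio of 0.536 (0.287 to 0.990), and for Tjp3 the ratio was 1.11 (0.515 to 2.48).

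The end libraries of both courses held counts of all 9 members, and Cldn6 and Ocln had the widest ratios between them. Cldn6 had 12.5 CPM in OvSvK on day 4 and 1.38 CPM in OSK on day 7, a ratio of 9.01 (5.79 to 14.6). Ocln had 3.80 CPM in OvSvK on day 4 and 17.3 CPM in OSK on day 7, a ratio of 0.220 (0.158 to 0.301). These were the 2 of 6 members past the 2-fold rule, 1 higher and 1 lower. Each reached 5 CPM only in the library where it was higher, so it could pass in that direction alone. Of all genes, 10.8% were higher and 9.83% lower by this rule, so the members' shares are near those of all genes. Cldn3 (ratio 0.977, 0.642 to 1.48) and Cldn7 (1.17, 0.843 to 1.63) did not differ beyond counting error. Days, medium time and library set differ between these libraries and cannot be told apart from the factors. Markers of other cell types also differed: the trophoblast sum was 61.5 CPM in OvSvK on day 4 and 23.6 CPM in OSK on day 7, and the keratinocyte sum was 31.1 CPM in OvSvK on day 4 and 11.9 CPM in OSK on day 7. The part of these markers was not tested. Cldn6 and its neighbour Cldn9 are close relatives. No Cldn6 count was fractional, and whether the genes share reads was not tested. Cldn9 had 2.06 CPM in OvSvK on day 4 and 0.0602 CPM in OSK on day 7.

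Scaled for length, the order of the members differed at the ends. In OvSvK on day 4, Tjp1 had 105 TPM, Cldn4 42.0 TPM, Cldn6 24.0 TPM, Cldn7 12.8 TPM and Crb3 11.6 TPM, followed by Cldn3 at 8.03 TPM, Ocln at 4.06 TPM, Marveld3 at 4.01 TPM and Tjp3 at 3.27 TPM. In OSK on day 7, Tjp1 had 89.7 TPM, Cldn4 23.8 TPM, Ocln 14.6 TPM, Crb3 13.9 TPM and Cldn7 12.6 TPM, followed by Cldn3 at 6.97 TPM, Marveld3 at 4.86 TPM, Tjp3 at 3.41 TPM and Cldn6 at 2.26 TPM. Cldn6 thus followed Tjp1 and Cldn4 at the end of OvSvK and came last at the end of OSK. With 1 library each, neighbours in these orders were not tested. The Tjp1 value on OSK day 7 was computed by RSEM with a mean transcript length of 4352 bases, against 6204 to 6659 bases in the other 19 libraries, so its TPM there is not on the same length basis.

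In OSK medium without bFGF, Cldn4, Crb3, Marveld3 and Tjp3 were lower than in full medium, while Cldn3 and Tjp1 did not pass the test in either direction. Cldn4 had 0.358 and 2.12 CPM without bFGF on days 3 and 7, and 1.99 and 17.6 CPM in full OSK medium. Crb3 had 0.358 and 1.11 CPM without bFGF and 1.15 and 6.02 CPM in full medium. Marveld3 had 0.179 and 1.06 CPM without bFGF and 1.15 and 4.45 CPM in full medium, and Tjp3 had 0.418 and 0.962 CPM without bFGF and 1.26 and 4.27 CPM in full medium. For each of these 4 genes both days were lower without bFGF. Ocln had 1.19 and 5.82 CPM without bFGF and 2.73 and 17.3 CPM in full medium, and Cldn7 had 0.119 and 0.818 CPM without bFGF and 0 and 4.99 CPM in full medium. Cldn3 had 1.91 and 4.47 CPM without bFGF and 0.524 and 3.55 CPM in full medium.

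Over both days, 4 of 9 members fell without bFGF, against 7.77% of 14191 genes that fell and 4.71% that rose, and no member rose. The 4 were below the filter on low counts in the bFGF-free library of day 3, and passed it only with libraries of other media. Entry thus favoured a call of lower, and the share of all genes that fell is not a like comparison. The log2 difference was -2.90 ± 0.48 (SE) for Cldn4 (adjusted p = 0.00864), -2.17 ± 0.50 for Crb3 (adjusted p = 0.0221), -2.30 ± 0.63 for Marveld3 (adjusted p = 0.0408) and -1.92 ± 0.55 for Tjp3 (adjusted p = 0.0472). Ocln (-1.43 ± 0.55, adjusted p = 0.117), Cldn7 (-2.10 ± 0.80, adjusted p = 0.109) and Cldn6 (-3.15 ± 1.30, adjusted p = 0.134) did not pass. Cldn3 differed by 0.87 ± 0.52 (adjusted p = 0.285, 95% interval -0.29 to 2.03). None was called without either of the bFGF-free libraries, where the remaining one is assumed to vary like the other media, and the Cldn4 difference was then -3.13 without its day 3 and -2.24 without its day 7. Without OSK day 7, 2 members were called. limma on log2(TPM + 1) called none of them, and with the GC trend removed Marveld3 (adjusted p = 0.0702) and Tjp3 (adjusted p = 0.0603) were lost.

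**Figure D2:**
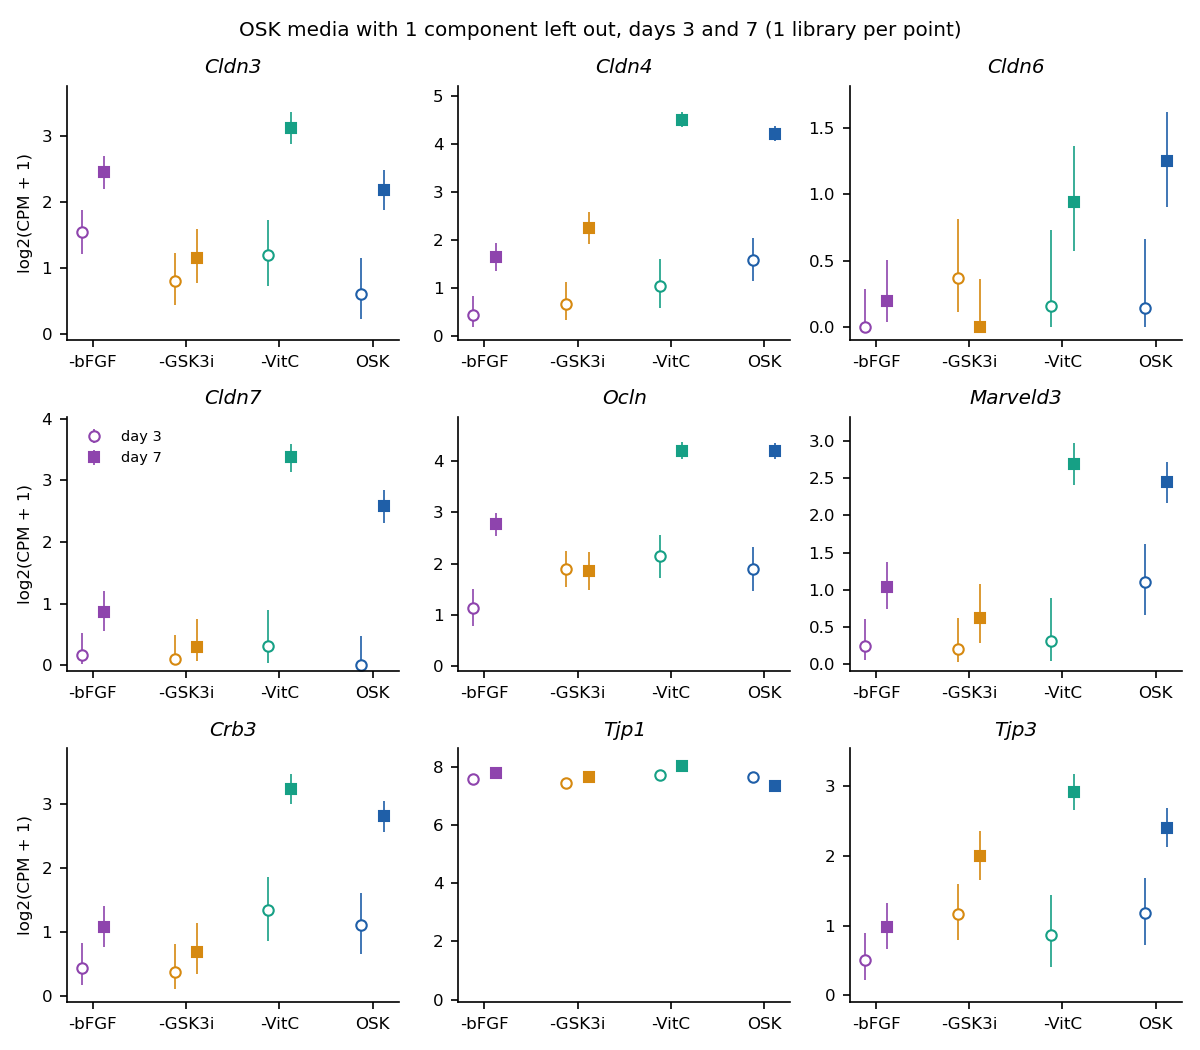
Each panel plots log2(CPM + 1) of 1 gene in OSK medium without bFGF, without the GSK3 inhibitors, without vitamin C and in full OSK medium, on day 3 (open circles) and day 7 (filled squares), 1 library per point with exact 95% counting limits. On day 7, Cldn4, Cldn7, Ocln, Marveld3 and Crb3 lie lower without bFGF and without the GSK3 inhibitors than without vitamin C and in full medium.

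In OSK medium without the GSK3 inhibitors, Cldn4, Crb3, Marveld3 and Cldn7 were lower than in full medium, and Tjp3 did not pass the test. Cldn4 had 0.589 and 3.77 CPM without the inhibitors on days 3 and 7, and 1.99 and 17.6 CPM in full medium. Crb3 had 0.295 and 0.616 CPM without them and 1.15 and 6.02 CPM in full medium, and Marveld3 had 0.147 and 0.539 CPM without them and 1.15 and 4.45 CPM in full medium. Cldn7 had 0.0737 and 0.231 CPM without them and 0 and 4.99 CPM in full medium, so its difference lies on day 7 alone. Ocln had 2.73 and 2.62 CPM without them and 2.73 and 17.3 CPM in full medium, equal on day 3 and apart on day 7. Tjp3 had 1.25 and 3.00 CPM without them and 1.26 and 4.27 CPM in full medium.

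Over both days, 4 of 9 members fell without the GSK3 inhibitors, against 13.3% of genes that fell and 9.97% that rose, and no member rose. Crb3, Marveld3 and Cldn7 were below the filter on low counts in both inhibitor-free libraries and passed it only through other media. Entry thus favoured a call of lower, and the share of all genes that fell is not a like comparison. The log2 difference was -2.78 ± 0.55 (SE) for Crb3 (adjusted p = 0.00764), -2.06 ± 0.46 for Cldn4 (adjusted p = 0.0123), -3.06 ± 0.71 for Marveld3 (adjusted p = 0.0146) and -3.66 ± 0.98 for Cldn7 (adjusted p = 0.0246). It was -1.32 ± 0.59 for Ocln (adjusted p = 0.133), -0.78 ± 0.59 for Cldn3 (adjusted p = 0.355) and -0.26 ± 0.51 for Tjp3 (adjusted p = 0.737, 95% interval -1.40 to 0.87). limma on log2(TPM + 1) called Crb3 alone. None was called without the inhibitor-free library of day 7, and Cldn7 turned to 1.21 (adjusted p = 0.731) without OSK day 7.

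Leaving out vitamin C gave 0 calls among the 9 members, against 0.296% of genes in either direction, with 0 members at an unadjusted p under 0.05 and 0 called by DESeq2 or limma. Cldn4 had 1.06 and 21.8 CPM without vitamin C on days 3 and 7 and 1.99 and 17.6 CPM in full medium, a fitted log2 difference of -0.03 ± 0.39 (SE, adjusted p = 0.986, 95% interval -0.89 to 0.83). Ocln had 3.42 and 17.4 CPM without vitamin C and 2.73 and 17.3 CPM in full medium, a difference of 0.12 ± 0.53 (adjusted p = 0.953, 95% interval -1.08 to 1.31). Cldn3 had 1.30 and 7.74 CPM without vitamin C and 0.524 and 3.55 CPM in full medium, a difference of 1.12 ± 0.52 (adjusted p = 0.409, 95% interval -0.03 to 2.28), and on day 7 its ratio was 2.18 (1.57 to 3.05). Cldn3 was the 1 of 8 members at 5 CPM past the 2-fold rule on day 7, against 6.54% of genes. It reached 5 CPM only without vitamin C, as did Cldn7, Marveld3 and Tjp3, so these could pass that rule only as higher.

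The contrasts among omission media lie within 1 library set. Without the GSK3 inhibitors, 5 of 9 members were lower than without vitamin C, against 9.29% of genes. They were Crb3 (-3.24 ± 0.55 SE on the log2 scale, adjusted p = 0.00418), Cldn7 (-4.67 ± 0.97, adjusted p = 0.0108), Cldn4 (-2.04 ± 0.46, adjusted p = 0.0163), Marveld3 (-2.75 ± 0.71, adjusted p = 0.0290) and Cldn3 (-1.91 ± 0.57, adjusted p = 0.0493). Without bFGF, 4 of 9 members were lower than without vitamin C, against 5.01% of genes. They were Cldn4 (-2.88 ± 0.48, adjusted p = 0.0101), Crb3 (-2.63 ± 0.50, adjusted p = 0.0146), Tjp3 (-2.18 ± 0.55, adjusted p = 0.0410) and Cldn7 (-3.12 ± 0.81, adjusted p = 0.0453). With RLE size factors in place of TMM, Cldn3 of the first contrast (adjusted p = 0.0525) and Cldn7 of the second (adjusted p = 0.0505) were not called. Crb3, Cldn7 and Marveld3 were below the filter on low counts in both inhibitor-free libraries. Cldn4, Crb3, Tjp3 and Cldn7 were below it in the bFGF-free library of day 3. They passed it only with libraries of other media, so entry favoured a call of lower. The shares of all genes are thus not like comparisons. These 2 contrasts also share libraries. None of the calls of either contrast held without the vitamin C-free library of day 7, and none held without the day 7 library of the other medium. For the GSK3 inhibitors, 3 calls were made without either bFGF-free library. In the second contrast none held without the bFGF-free library of day 3 either.

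Without bFGF against without the GSK3 inhibitors, 0 members were called, against 3.08% of genes, with 2 members at an unadjusted p under 0.05 and 0 called by DESeq2 or limma. Tjp3 had 0.418 and 0.962 CPM without bFGF on days 3 and 7 and 1.25 and 3.00 CPM without the GSK3 inhibitors, a log2 difference of -1.66 ± 0.56 (SE, adjusted p = 0.148). Cldn3 had 1.91 and 4.47 CPM without bFGF and 0.737 and 1.23 CPM without the GSK3 inhibitors, a difference of 1.65 ± 0.56 (adjusted p = 0.150). On both days Tjp3 had its lower value, and Cldn3 its higher value, without bFGF.

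**Figure D3:**
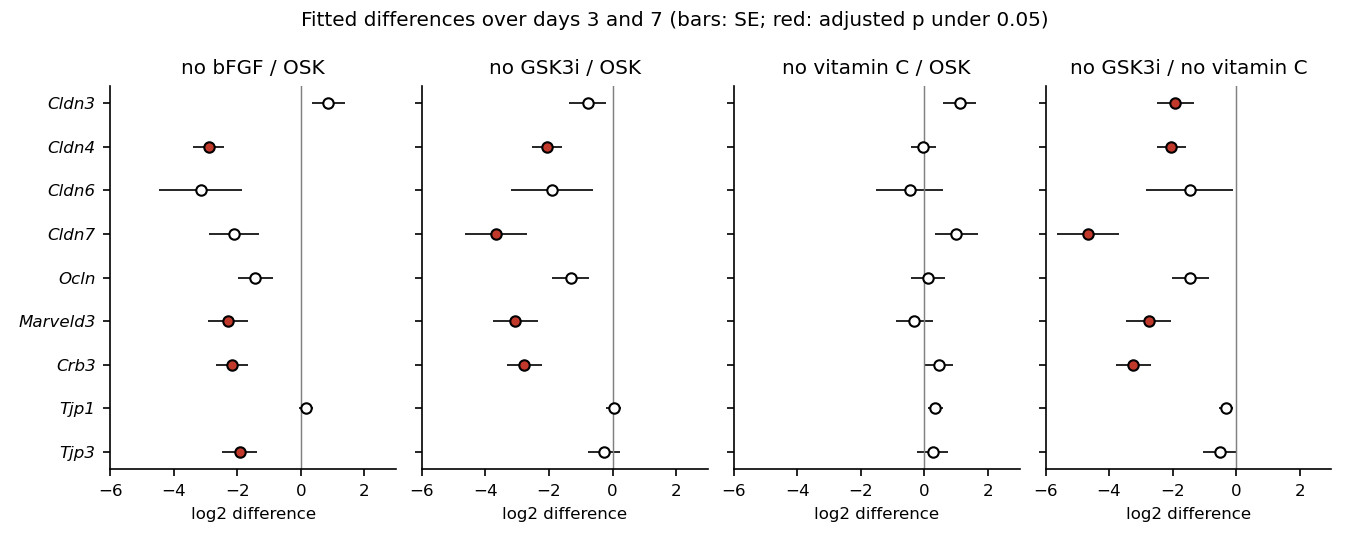
Points are fitted log2 differences over days 3 and 7 with SE bars for the 9 genes, in 4 comparisons named above the panels, and red points have an adjusted p under 0.05. Cldn4, Marveld3 and Crb3 are red except in the panel of vitamin C omission against full medium, where no gene is red.

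The epithelial marker sum was 38.6 and 161 CPM without bFGF, 33.6 and 64.5 CPM without the GSK3 inhibitors, 63.5 and 606 CPM without vitamin C, each as the lower and higher of its libraries, against 94.8 CPM on day 3 and 604 CPM on day 7 in full medium. Cdh1 on day 7 had 121 CPM without bFGF, 25.9 CPM without the GSK3 inhibitors, 298 CPM without vitamin C and 321 CPM in full medium. The grainyhead factor Grhl2, an activator of epithelial genes, had 0.914 CPM without bFGF, 0.539 CPM without the GSK3 inhibitors, 7.46 CPM without vitamin C and 7.16 CPM in full medium on that day. The summed mesenchymal repressors had 147 to 178 CPM without bFGF, 133 to 135 CPM without the GSK3 inhibitors and 142 to 161 CPM without vitamin C, beside 155 CPM on day 3 and 139 CPM on day 7 in full medium. The fibroblast sum on day 7 was 11200 CPM without bFGF, 11500 CPM without the GSK3 inhibitors and 7200 CPM without vitamin C, against 5080 CPM in full medium. The pluripotency sum on day 7 was 34.8 CPM without bFGF, 42.0 CPM without the GSK3 inhibitors and 90.5 CPM without vitamin C, against 341 CPM in full medium, so it was lower in all 3 omission media, unlike the epithelial sum. Their part in the members' levels was not tested.

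The authors' normalised table, a score with no unit, allows a comparison with mESC and MEF for 8 members. Marveld3 has no row there. Tjp1 scored 3096 in mESC and 2129 in MEF. The other 7 scored 48 to 1654 in mESC and 0 to 3 in MEF, so each was near its floor in fibroblasts. Crb3 scored 77 in OvSvK on day 4, 130 in OSK on day 7 and 169 in OSK without vitamin C on day 7, all above the 72 of mESC. Cldn6 scored 156 in OvSvK on day 4, above the 48 of mESC, and 15 in OSK on day 7. Cldn4 scored 518 in OvSvK on day 4 and 358 in OSK on day 7, below the 1654 of mESC. Tjp3 scored 62 in OvSvK on day 4 and 86 in OSK on day 7, below the 448 of mESC, and Ocln scored 24 and 134 in these libraries, below the 290 of mESC. mESC and MEF were quantified on mm9 with another RSEM version, so these are values with no test.

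**Figure D4:**
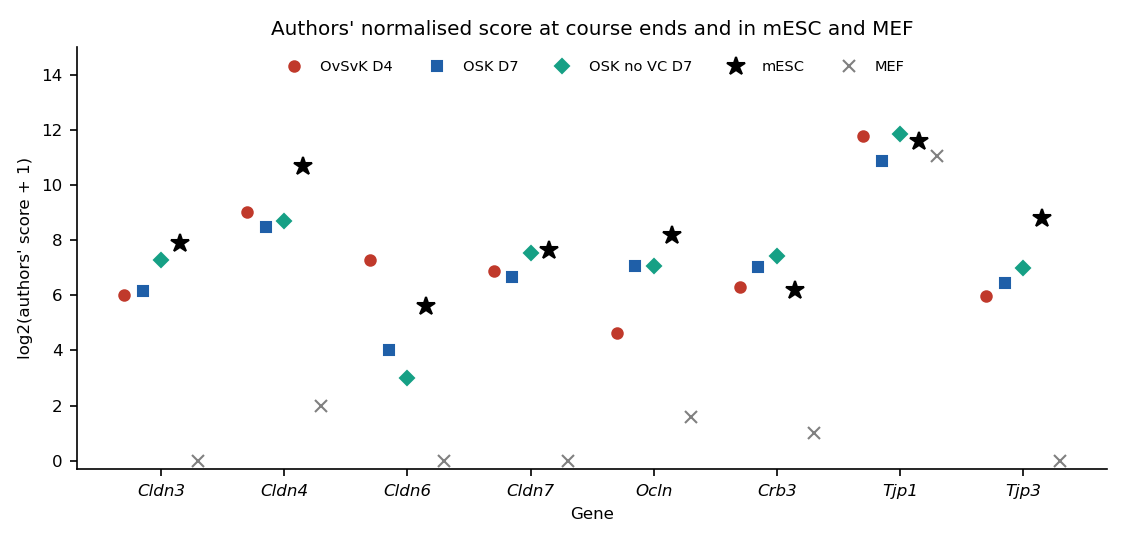
The plot gives log2 of the authors' score plus 1 for 8 genes in OvSvK day 4, OSK day 7, OSK without vitamin C day 7, mESC and MEF, 1 library per symbol. In MEF 7 genes lie at scores of 0 to 3, and Crb3 is above mESC in all 3 reprogramming libraries shown.

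Of 62 other tight junction and polarity genes, some moved with the members and others moved the opposite way. Between OSK and GFP on matched days, 14 of 43 tested were higher and 4 lower in OSK, beside 30.7% of all genes called in either direction. The median log2 difference was 0.57 for these genes and 0.05 for all. Ildr1, a tricellular junction protein, was higher by 7.90 ± 0.45 (SE, adjusted p = 0.000806), the adhesion receptor Cxadr by 4.46 ± 0.21 (adjusted p = 0.000585), and the adhesion molecule Jam2 by 2.58 ± 0.23 (adjusted p = 0.00216). Ildr1 had 4.71, 37.4, 65.2 and 61.5 CPM in OSK on days 1, 3, 5 and 7, and 0.127, 0.119, 0.124 and 0.264 CPM in GFP. Cgnl1 (paracingulin) was lower in OSK, with a log2 difference of -2.52 ± 0.39 (adjusted p = 0.00863), and the angiomotin gene Amot likewise, at -2.10 ± 0.59 (adjusted p = 0.0447). On a line over days, 14 of 48 rose and 8 fell in OSK, and 5 rose and 1 fell in OvSvK, beside 21.5% of all genes that rose and 24.0% that fell in OSK, and 4.49% that rose and 5.81% that fell in OvSvK. Lsr, the tricellular receptor, rose in both, by 0.45 ± 0.09 per day in OSK (adjusted p = 0.00402) and 0.91 ± 0.18 per day in OvSvK (adjusted p = 0.0104). The scaffold Amotl1 fell in OSK by -0.32 ± 0.05 per day (adjusted p = 0.00163). In the slope difference between OSK and GFP, 1 of 48 was higher and 1 lower, beside 2.85% and 3.38% of all genes. They were cingulin (Cgn, 0.64 ± 0.15, adjusted p = 0.0339) and Amotl1 (-0.35 ± 0.08, adjusted p = 0.0318).

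Among the same 62 genes, 2 of 49 rose and 7 fell without bFGF, 7 rose and 9 fell without the GSK3 inhibitors, and 0 changed without vitamin C, each against full OSK medium, where the shares of all genes are those given above for the members. Cldn15 was higher without bFGF by 2.03 ± 0.49 (SE) log2 units (adjusted p = 0.0254) and without the GSK3 inhibitors by 2.09 ± 0.49 (adjusted p = 0.0146), the opposite direction to Cldn4. The Crumbs partner Mpp5 (Pals1) fell without bFGF (-1.26 ± 0.21, adjusted p = 0.00924) and without the GSK3 inhibitors (-1.67 ± 0.22, adjusted p = 0.00184). Lin7c, which binds Pals1, fell in both as well, at -1.65 ± 0.26 (adjusted p = 0.0075) without bFGF and -1.75 ± 0.26 (adjusted p = 0.00261) without the GSK3 inhibitors. Ildr1 had 16.1 and 13.2 CPM without bFGF on days 3 and 7, and 52.9 and 55.8 CPM without the GSK3 inhibitors, a log2 difference of -1.88 ± 0.26 between these media (adjusted p = 0.00563). Cldn1, with 0.657 and 0.673 CPM without bFGF and 5.53 and 3.85 CPM without the GSK3 inhibitors, differed by -2.77 ± 0.42 (adjusted p = 0.00815).

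Over the 20 libraries, 8 members varied together and Tjp1 apart from them. The Pearson correlation of log2(CPM + 1) among the 28 pairs without Tjp1 ran from 0.348 (Cldn6 with Ocln) to 0.950 (Marveld3 with Crb3), with a median of 0.814. The 8 pairs with Tjp1 ran from 0.108 to 0.447. Among 12905 genes, Cldn7 was most like Ap1m2 (r = 0.979), Esrp1 (0.976) and Tmem145 (0.976). Marveld3 and Crb3 were both most like Gpx2 (0.976 for Marveld3, 0.973 for Crb3). The nearest gene was En2 for Cldn4 (0.938), Gad1 for Cldn6 (0.939), Slc35f2 for Ocln (0.960), Sema5b for Cldn3 (0.900), Rfx2 for Tjp3 (0.958) and Prkdc for Tjp1 (0.940). The libraries share arms, days and scaling, and many counts are low, so these are descriptions. By rank correlation none of the 3 nearest genes was shared for Cldn3, Cldn4, Cldn6, Cldn7 or Crb3.

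**Figure D5:**
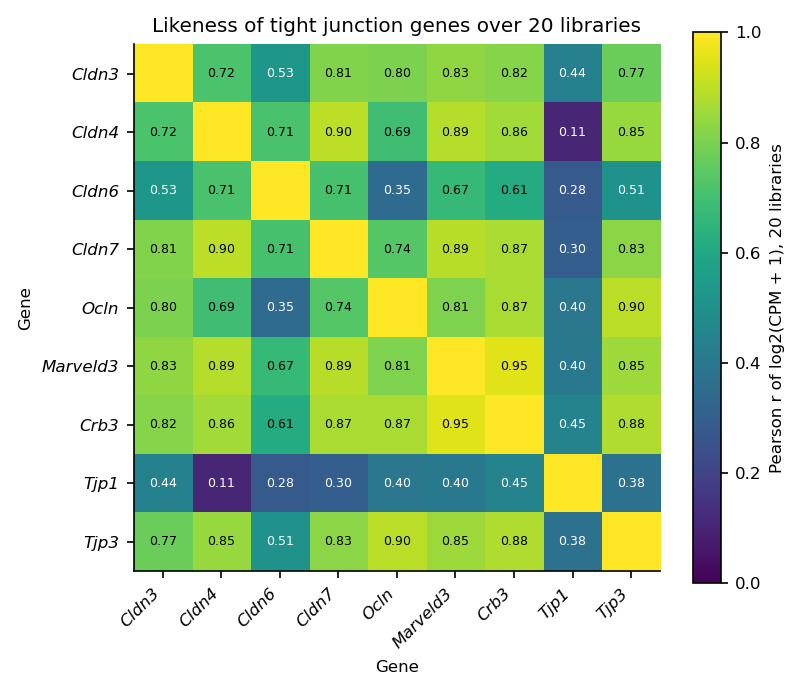
The grid shows the Pearson r of log2(CPM + 1) over 20 libraries for each pair of the 9 genes, on a colour scale of 0 to 1. The Tjp1 row is low throughout (0.108 to 0.447), and Marveld3 with Crb3 is the highest pair at 0.950.

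The members lie on 7 chromosomes in mm10. Cldn4 (chr5:134945119-134946934, minus strand) and Cldn3 (chr5:134986214-134987472, plus strand) are neighbours with 1 exon each, and their correlation over the libraries lay within the range of the other pairs. Cldn6 (chr17:23679249-23682446, plus) and Crb3 (chr17:57059105-57065918, plus) share a chromosome at a distance. Cldn7 lies at chr11:69964779-69967885 (plus), Ocln at chr13:100496507-100552718 (minus), Marveld3 at chr8:109947914-109962203 (minus), Tjp1 at chr7:65296165-65527781 (minus) and Tjp3 at chr10:81273207-81291581 (minus). Tjp3 overlaps exons of Apba3 on the opposite strand by 40 bases and Crb3 those of Dennd1c by 14 bases, and without strand information reads there cannot be told apart. The part of such reads in the counts of Tjp3 and Crb3 was not tested.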

How the data were processed

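Of the 22 samples, 20 have gene tables. Per the submitters' processing notes, reads were quantified by RSEM 1.2.4 against mm10, and for the mESC and MEF samples by the older RSEM 1.1.21 against mm9. Strandedness, read length and the aligner were not given in the sources used here. Per the file headers, the deposited tables give expected counts (ambiguous reads shared among genes) and TPM. The series table was deposited as whole numbers with 1 common distribution and was read as the authors' normalised score, used as values only.

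Expected counts were rounded, and edgeR 4.0.16 (R 4.3.3) quasi-likelihood tests with TMM scaling, filterByExpr by arm and Benjamini-Hochberg adjustment over all genes tested were used at 0.05. Day was a factor in the models of matched days (8 libraries with GFP, 6 with OvSvK) and of omissions (8 libraries), and a line per arm was fitted for changes per day (14 libraries). These models left 3, 2, 3 and 8 residual degrees of freedom. The cultures are not stated to be independent, and p-values measure only spread between these libraries. All fits ran across all genes and were tested on simulated data. Known changes were put there only in genes above a set mean count, so recovery at lower counts was not tested. No difference between the library sets was simulated. Alternatives were RLE size factors, no filter, DESeq2 1.42.0, limma 3.58.1 on log2(TPM + 1), removal of the GC trend, and leaving out libraries. CPM uses the total times the TMM factor. A 0 was set at 3 counts in ratios, and single-day ratios used at least 5 CPM in 1 library and 2-fold. Each SE was derived from the edgeR F-test, as the absolute log2 slope or difference divided by the square root of F. Intervals of slopes and differences use this SE and the t distribution with the degrees of freedom of the edgeR test.

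The members, the lists of other genes and the markers were chosen with earlier results of these data known. Likeness took the 3 genes of highest r. Of other junction genes, up to 4 of smallest p per direction and comparison could be named, and Cldn9 and the marker genes were added as context after their values were seen.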

Additional observations from a re-analysis of the deposited data

Results flagged for a closer look

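Cldn4 and Cldn6 were singled out because their change per day differed between OSK and GFP in the test of that difference. For Cldn4 the slopes differed by 1.12 ± 0.22 (SE) on the log2 scale per day (adjusted p = 0.0145 in edgeR), with 0.672, 1.99, 2.75 and 17.6 CPM in OSK and 3.31, 0.711, 0.373 and 0.264 CPM in GFP on days 1, 3, 5 and 7. For Cldn6 they differed by 2.10 ± 0.49 (adjusted p = 0.0388 in edgeR), with 0, 0.105, 0.385 and 1.38 CPM in OSK and 0.255, 0, 0 and 0 CPM in GFP on those days. In limma on log2(TPM + 1) the Cldn6 difference was 0.30 (adjusted p = 0.231) and was not called. Neither was called without OSK day 0 and GFP day 1, the 2 libraries whose genes of low GC content deviated most.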

How the results depend on the processing

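Of 33 calls on single members, 5 held under every alternative in which the gene was tested. They were Cldn4 and Cldn6 per day in OvSvK, and Cldn6, Ocln and Crb3 per day in OSK. Cldn6 did not pass the filter on low counts without OSK day 7 or without OvSvK day 2, 3 or 4. Its calls were thus not put to the removal of those libraries, its highest among them. Over 529 combinations of call and alternative, 420 kept the call, 108 lost it and 1 reversed, and the causes were not tested. For OSK against GFP, where 0 members were called, no filter on low counts and DESeq2 each called 4 and limma 1, and leaving out days gave 0 to 5. For OvSvK against OSK, DESeq2 called 1, and leaving out days gave 0 to 1. Leaving out 1 library gave 2 to 7 members rising per day in OvSvK, 4 to 9 in OSK and 0 to 2 changing in GFP, where DESeq2 called 1. For the slope of OSK against that of GFP (2 called), leaving out 1 library gave 0 to 2, limma called 6 (Cldn4 with Cldn3, Ocln, Marveld3, Crb3 and Tjp3, and not Cldn6), and leaving out OSK day 0 with GFP day 1 gave 0. For the slope of OvSvK against that of OSK (0 called), DESeq2, limma and removal of the GC trend each called 1, and leaving out 1 library gave 0 to 1. Without bFGF (4 called), limma called 0, GC removal 2, and leaving out 1 library gave 0 to 5. Without the GSK3 inhibitors (4 called), limma called 1, and leaving out 1 library gave 0 to 6, with Cldn7 ranging from -4.19 to 1.21. Against the vitamin C omission, limma called 1 and GC removal 3 for the GSK3 inhibitor omission (5 called, 0 to 6 with 1 library left out), and limma called 1 and GC removal 2 for the bFGF omission (4 called, 0 to 5 with 1 library left out). At a floor of 1 CPM the members past 2-fold numbered 8 for OSK against GFP on day 7 (46.2% of all genes in either direction), 8 for OvSvK against GFP on day 3 (44.1%), 6 for OvSvK against OSK on day 3 (26.5%), and on day 7, against full medium, 7 without bFGF (22.1%) and 7 without the GSK3 inhibitors (30.8%). In the comparisons with GFP, these members reached 1 CPM in the OSK or OvSvK library alone, so they could pass only as higher. Between OvSvK and OSK on day 3, the same holds for Cldn3, Cldn6 and Cldn7, which reached 1 CPM in OvSvK alone. On day 7, Cldn6, Cldn7, Marveld3 and Crb3 without the GSK3 inhibitors could pass only as lower, reaching 1 CPM in full medium alone. Cldn6, Cldn7 and Tjp3 without bFGF had that limit too. No paired analysis was possible by replicate number, because each arm and day is 1 library. Pairing by day is already a term of the matched-day and omission fits. Leaving out a whole day from the omission fits leaves no residual degree of freedom and was not run, and single libraries were left out instead, an alternative chosen after seeing the data. Depth limits most members: the highest count in any library was 77 for Marveld3, 92 for Tjp3, 109 for Cldn3, 119 for Crb3, 132 for Cldn7 and 151 for Cldn6, against 5241 for Tjp1.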
